A study of Mus musculus with 8 samples.

Results

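Levels of 8 genes of Schwann cells and peripheral myelin were followed through 8 RNA-seq libraries of mouse spinal dorsal horn. The genes, Pmp22, Prx, Ncmap, Drp2, Pmp2, Mlip, Fxyd3 and Cdh19, were taken by symbol as a list that could report dorsal root tissue attached to the dissected cord. All 8 of 8 were found among the 49585 genes of each library, each once, and 7 of the 8 had a mean of at least 1 FPKM (fragments per kilobase of transcript, scaled to library size), the level above which genes were tested. Pmp2 did not. The libraries came from the lumbar dorsal horn of adult C57BL/6J mice, 4 from wild type and 4 from miR-96 knock-out animals, with no treatment named in the labels. The sources used here do not give how the knock-out allele was made. The design text counts mice, but the labels do not tie each library to one animal, so the spread between libraries may in part be technical.

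Schwann cells wrap the axons of nerves and spinal roots outside the cord, while oligodendrocytes make the myelin inside it. Dorsal roots carry sensory axons into the dorsal horn, and the change from Schwann cell to oligodendrocyte myelin lies close to the point of entry. Peripheral myelin has a compact part, held together by small membrane proteins, and an outer Schwann cell membrane that is anchored to the basal lamina through dystroglycan.

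The estimated depth was 29800000 to 41000000 fragments per library, and 24091 to 25560 genes had a value above 0. Genes listed as markers of dorsal horn neurons were present, among them Lmx1b at 13.4 to 21.2 FPKM and Pax2 at 10.8 to 17.5 FPKM. Slc17a6, a vesicular glutamate transporter, was at 96.7 to 136 FPKM. Slc32a1, the vesicular GABA transporter, was at 81.9 to 95.2 FPKM in wild type and 73.2 to 81.4 in knock-out, without overlap. Its log2 fold change was -0.16 (SE 0.081, limma adjusted p = 0.62). It alone of the dorsal horn genes listed was without overlap, as were 3.03% (457 of 15061) of all genes tested. Wild type replicate 2 and knock-out replicate 3 stood apart in the genes described here, and wild type replicate 1 stood apart in haemoglobin genes, with a summed 199 FPKM against 5.96 to 39.3 in the others. Mir96 (chromosome 6, 30169446 to 30169551) was listed at 0 FPKM in 8 of 8 libraries. A library of polyadenylated long RNA does not measure a mature microRNA, so this value does not check the genotype labels.

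The microRNA that the knock-out mice lack and the one match to it among the 8 genes are shown first, because a direct target would carry such a match in its 3′ untranslated region. The mature strand is encoded on the minus strand of GRCm38 (RefSeq, build GRCm38.p6) at chr6:30169506-30169528, and its seed, bases 2 to 8, is in capitals. The match, in capitals on the second line, begins at base 305 of the 1372-base 3′ untranslated region of Cdh19 (GENCODE, GRCm38) and pairs with bases 2 to 7 of miR-96 followed by an A.
mmu-miR-96-5p: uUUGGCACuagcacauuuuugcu
Cdh19 match: aaatgagaaattTGCCAAAgaaagctatc

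The other 7 genes held neither GTGCCAA nor TGCCAAA in their longest annotated 3′ untranslated region, which ran from 310 bases in Mlip to 4701 bases in Prx. In Prx that region took 4701 of the 5579 exonic bases, and whether other transcripts use those bases as coding sequence was not checked. Of 13081 tested genes with such a region, 22.2% held at least 1 of the 2 words, beside 1 of the 8 genes here. A match is a description of letters and not a measured site.

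Promoter windows are shown for 3 of the 6 genes that had the same 2 libraries on top. EGR2, a zinc-finger transcription factor that switches on the peripheral myelin programme, belongs to a family that binds GC-rich elements with a GTGGG core. Promoter sequence was available for 5 of the 8 genes (10 promoters, RefSeq, GRCm38.p6). The letters GTGGGNG, read on both strands, were found in 1 promoter each of Prx, Ncmap and Fxyd3, and in none of those of Pmp22 and Mlip. Of 32851 mouse promoters of the same length, 31.6% held them. The letters ACAANG, a loose form of the SOX core with any base at N, were found in Mlip only, against 41.2% of all promoters. There the same ACAACG was read in 2 overlapping promoters. The lines give 100 bases around each match, 5′ to 3′ on the gene's strand, with the match in capitals: Prx chr7:27499173-27499272 (plus strand, match on the opposite strand), Ncmap chr4:135398347-135398446 (minus strand) and Fxyd3 chr7:31076718-31076817 (minus strand).
Prx: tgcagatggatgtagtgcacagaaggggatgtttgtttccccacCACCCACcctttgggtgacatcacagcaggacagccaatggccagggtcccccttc
Ncmap: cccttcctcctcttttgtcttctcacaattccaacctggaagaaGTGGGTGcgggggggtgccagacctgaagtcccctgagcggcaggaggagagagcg
Fxyd3: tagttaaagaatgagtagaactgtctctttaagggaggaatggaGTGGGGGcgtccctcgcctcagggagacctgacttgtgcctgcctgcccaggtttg

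Pmp22 (chromosome 11, 63128982 to 63159547) encodes a small membrane protein of compact myelin whose gene dosage is known from inherited neuropathy, and it is also made at lower levels by other cells. It was the most abundant of the 8 per length. In wild type replicates 1 to 4 it stood at 195, 309, 187 and 180 FPKM, and in knock-out replicates 1 to 4 at 201, 151, 299 and 176 FPKM. A single library of each genotype, wild type replicate 2 and knock-out replicate 3, lay far above the rest, and the groups overlapped. Means were 218 ± 61.0 FPKM for wild type and 207 ± 64.9 in knock-out (SD, n = 4 each), and the log2 fold change was -0.086 (SE 0.23; adjusted p = 0.888, limma).

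Ncmap (chromosome 4, 135369576 to 135398227) encodes a membrane protein of the noncompact regions of peripheral myelin. Its levels were 10.7, 17.4, 9.93 and 12.3 FPKM in wild type replicates 1 to 4 and 13.5, 10.6, 17.9 and 12.3 FPKM in knock-out replicates 1 to 4. The same 2 libraries were highest and the groups overlapped. The log2 fold change was 0.11 (SE 0.19, limma adjusted p = 0.821).

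Pmp2 (chromosome 3, 10179851 to 10183929), the fatty-acid-binding protein of compact myelin, was close to absent in the tables. It stood at 0, 0.092, 0.0193 and 0.0385 FPKM in replicates 1 to 4 of wild type and 0.0176, 0.0881, 0.0174 and 0.0937 FPKM in knock-out. At the estimated depths and its single 1408-base transcript these values amount to 0, 5, 1 and 2 fragments and 1, 4, 1 and 4 fragments. The annotation limits what they say: 1224 of the 1408 exonic bases (86.9%) also belong to Gm37389, a coding gene model on the same strand, which was listed at 0 FPKM in 8 of 8 libraries. How fragments shared by the pair were assigned is not stated in the sources at hand, so the level of Pmp2 is uncertain. Its mean was under the level for testing, and in the fit without that filter its log2 fold change was 0.023 (limma adjusted p = 0.83).

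Prx and Drp2 encode partners in 1 complex: periaxin binds dystrophin-related protein 2, which links it to dystroglycan at the outer Schwann cell membrane. Prx (chromosome 7, 27499324 to 27520214) had 15.4, 26.3, 11.1 and 17.2 FPKM in replicates 1 to 4 of wild type and 17.4, 11.2, 26.3 and 15.8 FPKM in those of knock-out. Wild type replicate 2 and knock-out replicate 3 were equal to 3 digits and each more than every other library. The means were 17.5 ± 6.40 and 17.7 ± 6.31 FPKM (SD, n = 4 each), and the log2 fold change was 0.018 (SE 0.28; adjusted p = 0.984, limma).

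Drp2 (chromosome X, 134404551 to 134456573) had 22.1, 33.4, 25.5 and 32.5 FPKM in replicates 1 to 4 of wild type and 31.2, 25.6, 41.0 and 29.8 FPKM in those of knock-out. Its highest 2 libraries were those of Prx, with wild type replicate 4 close to wild type replicate 2. The log2 fold change was 0.16 (SE 0.17, limma adjusted p = 0.689).

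Mlip (chromosome 9, 77102081 to 77352969) encodes a lamin-interacting protein best known from heart and skeletal muscle. Its levels were 2.64, 4.02, 2.46 and 3.38 FPKM in replicates 1 to 4 of wild type and 3.18, 3.00, 4.17 and 2.60 FPKM in knock-out replicates 1 to 4. Knock-out replicate 3 and wild type replicate 2 were again highest and the groups overlapped (log2 fold change 0.043, SE 0.16, limma adjusted p = 0.92). Of the 11 skeletal muscle markers listed, 9 had a mean under 1 FPKM, the fast myosin genes Myh1, Myh2 and Myh4 reached at most 0.0384 FPKM, and their summed level was 3.59 to 9.38 FPKM among wild-type libraries and 4.98 to 5.89 among knock-out ones. That sum was highest in wild type replicate 2 (9.38) and 5.07 in knock-out replicate 3, and its part in the level of Mlip was not tested.

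Fxyd3 (chromosome 7, 31068172 to 31076704) encodes a regulator of the sodium pump found in epithelia and Schwann cells. It had 2.24, 3.23, 2.29 and 2.07 FPKM in replicates 1 to 4 of wild type and 1.56, 1.53, 2.54 and 1.71 FPKM in those of knock-out. Knock-out replicate 3 alone of its genotype lay within the wild-type range, and the other knock-out libraries lay below every wild-type library. The means were 2.46 ± 0.524 and 1.84 ± 0.475 FPKM (SD, n = 4 each), and the log2 fold change was -0.29 (SE 0.16; adjusted p = 0.62, limma). Of its exonic bases, 42.5% (2059 of 4850) lie opposite exons of Lgi4, a Schwann cell gene at 10.7 to 20.3 FPKM. Whether strand was used in counting is not given, so reads of the pair may not be separated. Epithelial markers were low, with Krt5 at no more than 0.0559 FPKM and Epcam at no more than 0.211 FPKM in these libraries, and 6 of 7 listed had a mean under 1 FPKM. Their summed level was 2.38 to 3.26 FPKM among wild-type libraries and 2.08 to 5.56 among knock-out ones, highest in knock-out replicates 1 and 3. That sum was made up mostly of Cdh1 (3.89 and 4.30 FPKM there), and its part in the level of Fxyd3 was not tested.

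Cdh19 (chromosome 1, 110888326 to 110977584), a cadherin of neural crest derivatives and the Schwann cell lineage, did not have the 2 highest libraries shared by the other 6 tested genes. It had 8.06, 6.45, 6.15 and 15.2 FPKM in replicates 1 to 4 of wild type and 13.5, 15.1, 7.91 and 14.8 FPKM in those of knock-out. Wild type replicate 4 and knock-out replicates 1, 2 and 4 lay between 13.5 and 15.2 FPKM, and the other 4 libraries between 6.15 and 8.06 FPKM, with none between. The libraries richest in Prx were among the low ones. The means were 8.97 ± 4.25 and 12.8 ± 3.35 FPKM (SD, n = 4 each), and the log2 fold change was 0.52 (SE 0.28; adjusted p = 0.62, limma). It passed with estimated library weights (0.94, limma adjusted p = 0.0389), a fit in which 1627 of 15061 genes passed, against 0 without weights. The weights for wild type replicates 1 to 4 were 0.153, 0.988, 5.09 and 0.423, and for those of knock-out 1.42, 2.63, 0.696 and 1.17. The largest was that of wild type replicate 3, the library lowest in Cdh19. Without wild type replicate 4 the log2 fold change was 0.78. All 6 melanocyte markers, another neural crest derivative, had a mean under 1 FPKM, with summed levels of 0.547 to 0.960 FPKM among wild-type libraries and 0.409 to 0.840 among knock-out ones.

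**Figure D1:**
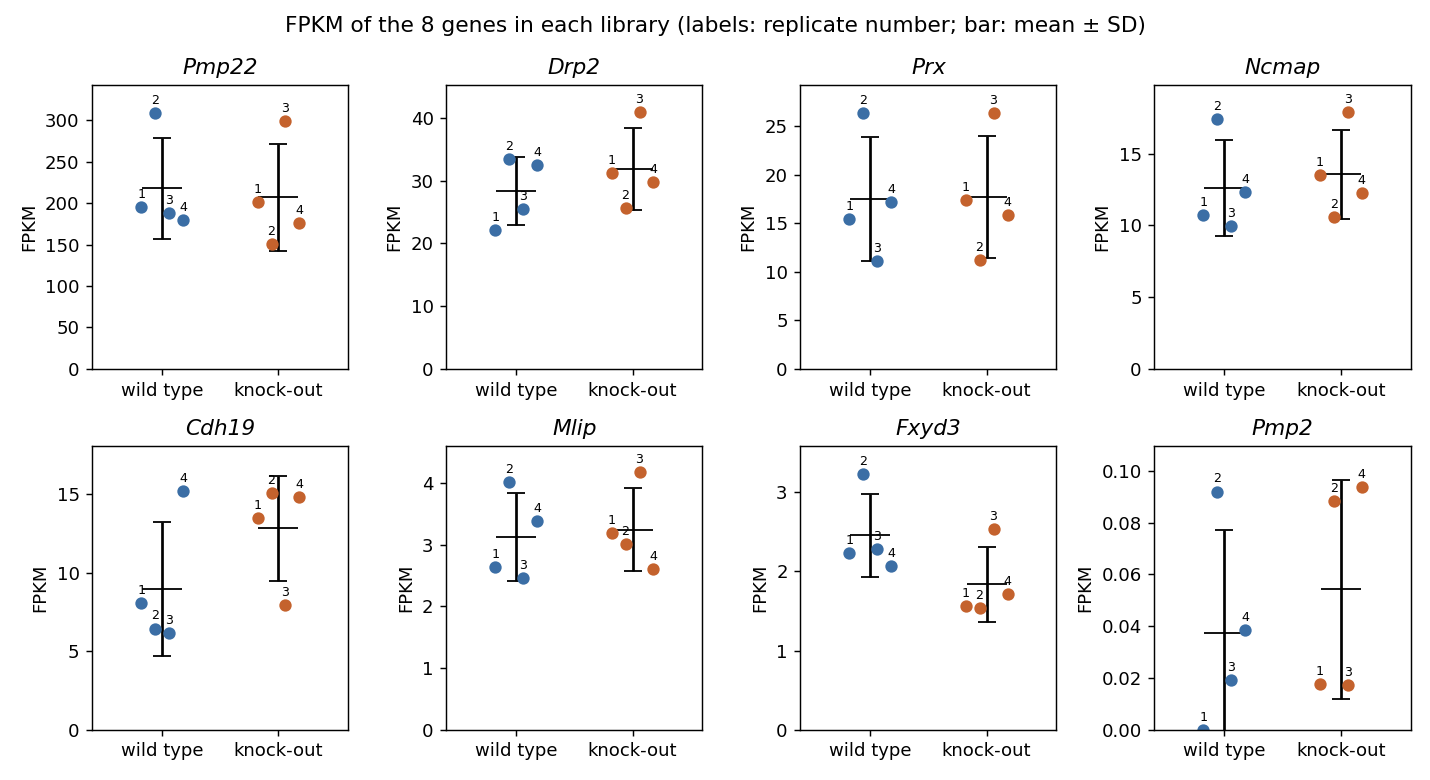
FPKM (vertical axes, from 0) of each gene in each library, by genotype, with the replicate number beside each point and bars for the mean ± SD (n = 4). Wild type replicate 2 and knock-out replicate 3 are the 2 highest points in 6 of the 7 genes tested, while Cdh19 has 4 libraries at 13.5 to 15.2 FPKM and 4 at 6.15 to 8.06 FPKM.

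Ordered by level, the genes ran from Pmp22 (mean over the 8 libraries 212 FPKM) through Drp2 (30.1), Prx (17.6), Ncmap (13.1), Cdh19 (10.9), Mlip (3.18) and Fxyd3 (2.15) to Pmp2 (0.0458). Each stood above the next in 8 of 8 libraries, except that Ncmap exceeded Cdh19 in 5 of 8. Over the libraries, the range of Prx overlapped those of Drp2, Ncmap and Cdh19, the range of Ncmap overlapped that of Cdh19, and the range of Mlip overlapped that of Fxyd3.

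Between libraries the genes varied more than most. The residual SD within genotypes was 0.48 for Prx, 0.48 for Cdh19 and 0.39 for Pmp22 on the log2(FPKM + 1) scale, at percentiles 95.5, 95.4 and 91.2 of the 15061 genes tested, whose median was 0.19. The lowest percentile was that of Fxyd3, at 61.1. From lowest to highest library, levels differed 2.47-fold for Cdh19, 2.37-fold for Prx, 2.11-fold for Fxyd3, 2.05-fold for Pmp22, 1.86-fold for Drp2, 1.80-fold for Ncmap and 1.70-fold for Mlip.

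In 6 of the 7 tested genes, wild type replicate 2 and knock-out replicate 3 were the 2 highest libraries, with Cdh19 the exception. Over all genes tested, 5.29% (797 of 15061) had the same 2 libraries on top. This pair was noticed in the data, so the count is a description. Some ratios between the genes were steadier than the levels. The coefficient of variation over 8 libraries was 23.3% for Ncmap and 20.3% for Mlip, but 9.53% for Mlip divided by Ncmap. It was 33.5% for Prx, and 13.4% for Ncmap divided by Prx. Drp2 divided by Prx, the partners in 1 complex, varied by 20.6%, against 19.5% for Drp2 itself, and Mlip divided by Prx by 20.4%, against 20.3% for Mlip. Cdh19 divided by Prx varied by 52.3%, more than either level (37.6% and 33.5%), and Fxyd3 divided by Prx by 28.6%, against 26.5% for Fxyd3 itself. In bulk tissue, fewer cells of a type and less RNA per cell cannot be told apart.

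**Figure D2:**
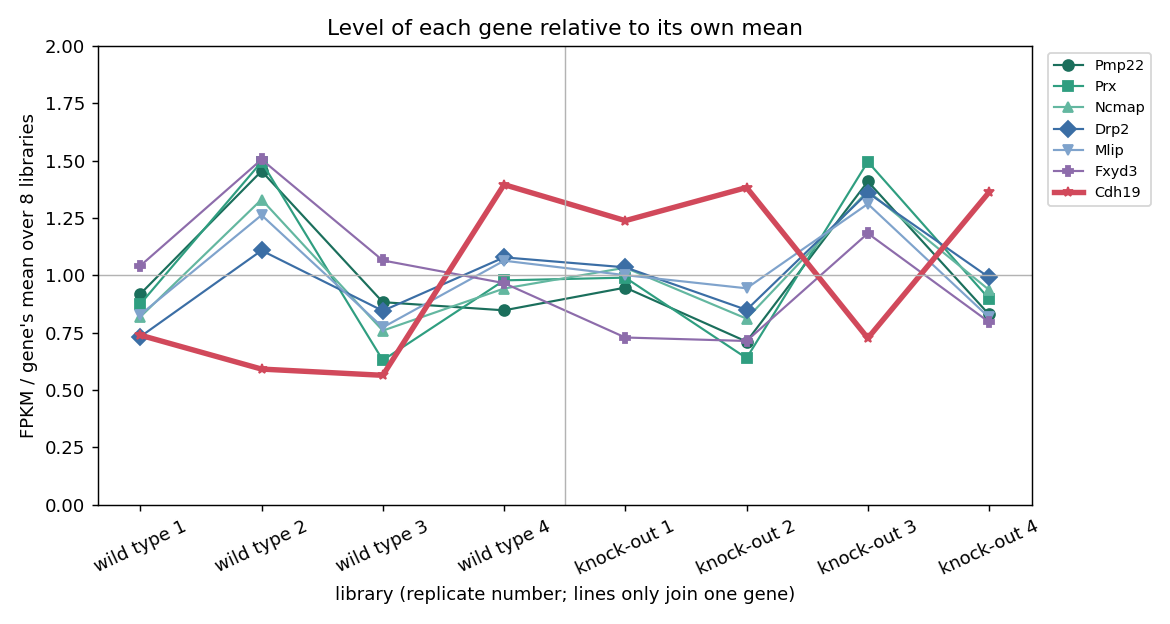
Each gene's FPKM divided by its own mean over the 8 libraries (vertical axis, no unit), by library. Of the 7 genes drawn, 6 peak at wild type 2 and knock-out 3, where Pmp22 lies at 1.45 and 1.41 of its mean, while Cdh19 (thick line) lies at 0.591 and 0.726 there.

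A further list of 13 Schwann cell genes was read beside the 8. Wild type replicate 2 and knock-out replicate 3 were highest in 3 of its 12 tested members: the regulator Egr2 (4.49 and 4.74 FPKM there, 1.30 to 4.14 elsewhere), the tight junction gene Cldn19 (7.33 and 8.72, against 2.68 to 5.51) and the ligand gene Dhh (3.84 and 3.60, against 1.22 to 2.90). The other 9 did not share it, among them the laminin receptor subunit Itgb4 (13.5 to 17.5 FPKM in all), Sh3tc2 (1.65 to 2.76), Gldn (1.10 to 1.72), Adgrg6 (2.09 to 3.05), Pou3f1 (2.44 to 4.40), Scn7a (1.18 to 2.64) and Ngfr (0.833 to 1.90). The list summed highest in those libraries, at 67.3 and 72.8 FPKM against 48.8 to 61.0 elsewhere.

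By genotype, 8 of the 12 tested had a higher mean log2 value in knock-out and 4 a lower one, and none passed limma at adjusted p under 0.05 (0 also at unadjusted p). Over all genes tested, 53.1% had a higher mean in knock-out and 5.52% an unadjusted limma p under 0.05. The median log2 fold change was 0.077. Foxd3, a neural crest transcription factor, was the single gene of this list whose groups did not overlap (1.52 to 2.16 FPKM against 2.18 to 2.55 in knock-out, log2 fold change 0.24, SE 0.12, limma adjusted p = 0.62). Groups without overlap were seen in 3.03% of all genes tested. Col28a1, at 0.379 to 1.43 FPKM, had a mean under 1 FPKM and was not tested.

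Among 13107 named genes outside the 8 with a mean of at least 1 FPKM, the 10 whose log2(FPKM + 1) over the 8 libraries was most like the mean of the 8 scaled genes included Hk2, Sult1a1, Arhgap19, Rhobtb1, Dhh, Plekha4, Galnt10, Erp44 and Il16. Their Pearson correlation with that mean ran from 0.944 (Hk2) to 0.885 (Il16), and 1% of the genes compared exceeded 0.758. These values describe 8 libraries that share preparation, and carry no test. Each of the 8 genes weighed alike in the mean, among them Pmp2, close to absent, and Cdh19, which correlated with that mean at -0.155. The mean profile of 6 genes, without Pmp2 and Cdh19 (chosen after the values were seen), kept 5 of the 10, among them Arhgap19 at 0.967 but not Hk2.

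The genotype comparison asked whether knock-out libraries held more or less of these transcripts. None of the 7 tested genes passed limma at adjusted p under 0.05, and 0 of 7 did so at unadjusted p, against 0% (0 of 15061) and 5.52% (831 of 15061) of all genes. A higher mean in knock-out was seen in 5 of the 7, against 53.1% of all genes. The median log2 fold change was 0.043 for the 7 and 0.014 for all genes. The groups overlapped for each of the 7, and limma adjusted p ran from 0.62 to 0.984. By an exact two-sided permutation test of each gene alone, the lowest p was 0.114 (Fxyd3), where the smallest that 4 against 4 libraries can give is 0.0286.

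These libraries did not bound the differences tightly. The 95% intervals of the log2 fold change were -0.60 to 0.63 for Prx, -0.60 to 0.43 for Pmp22, -0.32 to 0.53 for Ncmap, -0.21 to 0.54 for Drp2, -0.31 to 0.40 for Mlip, -0.64 to 0.061 for Fxyd3 and -0.098 to 1.14 for Cdh19. With wild type replicate 2 and knock-out replicate 3 both left out (chosen after seeing the data), the log2 fold changes were -0.10 for Pmp22, 0.024 for Prx, 0.13 for Ncmap, 0.12 for Drp2, 0.042 for Mlip, -0.30 for Fxyd3 and 0.60 for Cdh19, and none passed in limma.

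**Figure D3:**
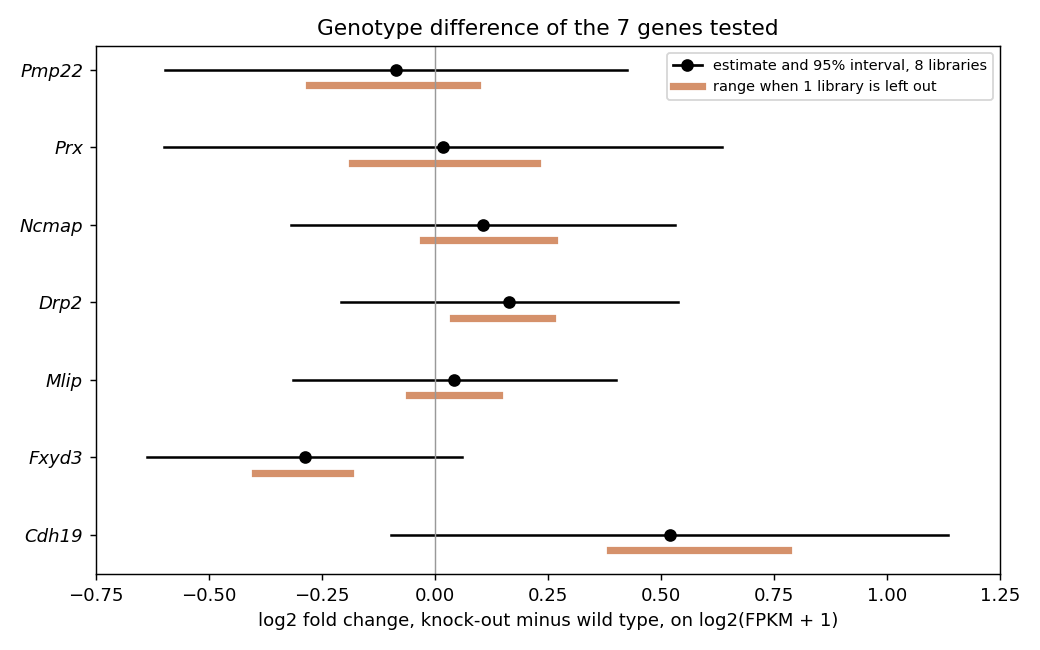
Log2 fold change, knock-out minus wild type, of the 7 genes tested (horizontal axis, log2(FPKM + 1) scale), with 95% intervals in black and the range over fits without 1 library in orange. All 7 intervals include 0, and the estimates of Drp2, Fxyd3 and Cdh19 keep their sign when any 1 library is left out.

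Markers of other cells of the root, cord and meninges were read in the same libraries, and their part in the results was not tested. Central myelin genes did not share the pattern: Mobp, Cldn11 and Mog, all oligodendrocyte genes, were highest in wild type replicate 1 (2642, 261 and 216 FPKM). The 12 listed summed to 2392 to 3722 FPKM among wild-type libraries and 2525 to 2917 among knock-out ones, with 3 higher and 9 lower in knock-out and 0 passing. Of 11 genes used by both kinds of myelin, which include Mbp, Cnp and Mag, 4 had a higher and 7 a lower mean and 0 passed at adjusted p (1, Gjc3, at unadjusted p). They summed to 5887 to 10087 FPKM among wild-type libraries and 6503 to 7669 among knock-out ones. Beside these counts, 53.1% of all genes tested had a higher mean in knock-out and 5.52% an unadjusted limma p under 0.05.

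Of the 7 sensory ganglion neuron genes listed, 4 were highest in knock-out replicate 3, and P2rx3, Trpv1 and Prph were not. Scn10a, a sodium channel of nociceptors, was at 0.387 FPKM in knock-out replicate 3 and at most 0.0112 in the other 7. Scn11a was at 0.167 there and at most 0.0281 elsewhere, Mrgprd at 0.0701 and at 0 in the other 7, and Avil, advillin, at 1.64 against 0.308 to 0.683. Wild type replicate 2, as rich in Prx, held 0 FPKM of Scn10a, Scn11a and Mrgprd. The 7 listed summed to 12.7 FPKM in knock-out replicate 3 and to 7.72 to 35.2 in the others, sums made up mostly of Prph. The list without Prph, which motor neurons also express, summed to 3.82 FPKM in knock-out replicate 3 and 1.36 to 2.86 in the others. Prph itself was at 6.02 to 33.3 FPKM, and at 8.89 in knock-out replicate 3.

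Motor neuron genes, which mark the ventral horn, took another order. The 7 listed summed to 60.9 FPKM in knock-out replicate 1 and 44.6 in wild type replicate 2, but to 10.8 in knock-out replicate 3. Slc18a3, the vesicular acetylcholine transporter, was at 15.0 FPKM in wild type replicate 2 and 3.45 in knock-out replicate 3, the others running from 3.04 to 19.4. Fibroblast genes of meninges and nerve, among them Igf2, Mgp and Dcn, summed to 341 FPKM in knock-out replicate 1, to 236 in knock-out replicate 3 and to 133 in wild type replicate 2, the lowest of the 8 libraries. Knock-out replicates 2 and 4 summed to 140 and 135 FPKM, while the wild-type libraries ran from 133 to 222. All 13 had a higher mean in knock-out, against 53.1% of all genes tested, and 0 passed in limma at adjusted or unadjusted p. Astrocyte genes (Gfap, Gja1, Aqp4 and others) summed to 736 to 990 FPKM, highest in wild type replicate 1, a sum made up mostly of Gfap (755 FPKM there). Gja1, Aqp4, Aldh1l1 and Slc1a3 were each lowest in that library. Of the 5 listed, only 1, Aldh1l1, had wild type replicate 2 and knock-out replicate 3 on top (40.1 and 41.0 FPKM). Endothelial genes (Flt1, Cldn5, Pecam1 and others) summed to 97.3 FPKM in knock-out replicate 3 and 82.8 in wild type replicate 2, the pair rich in Schwann cell genes, and to 67.8 to 80.2 in the other 6. Of the 4 listed, only 1, Pecam1, had that pair on top.

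**Figure D4:**
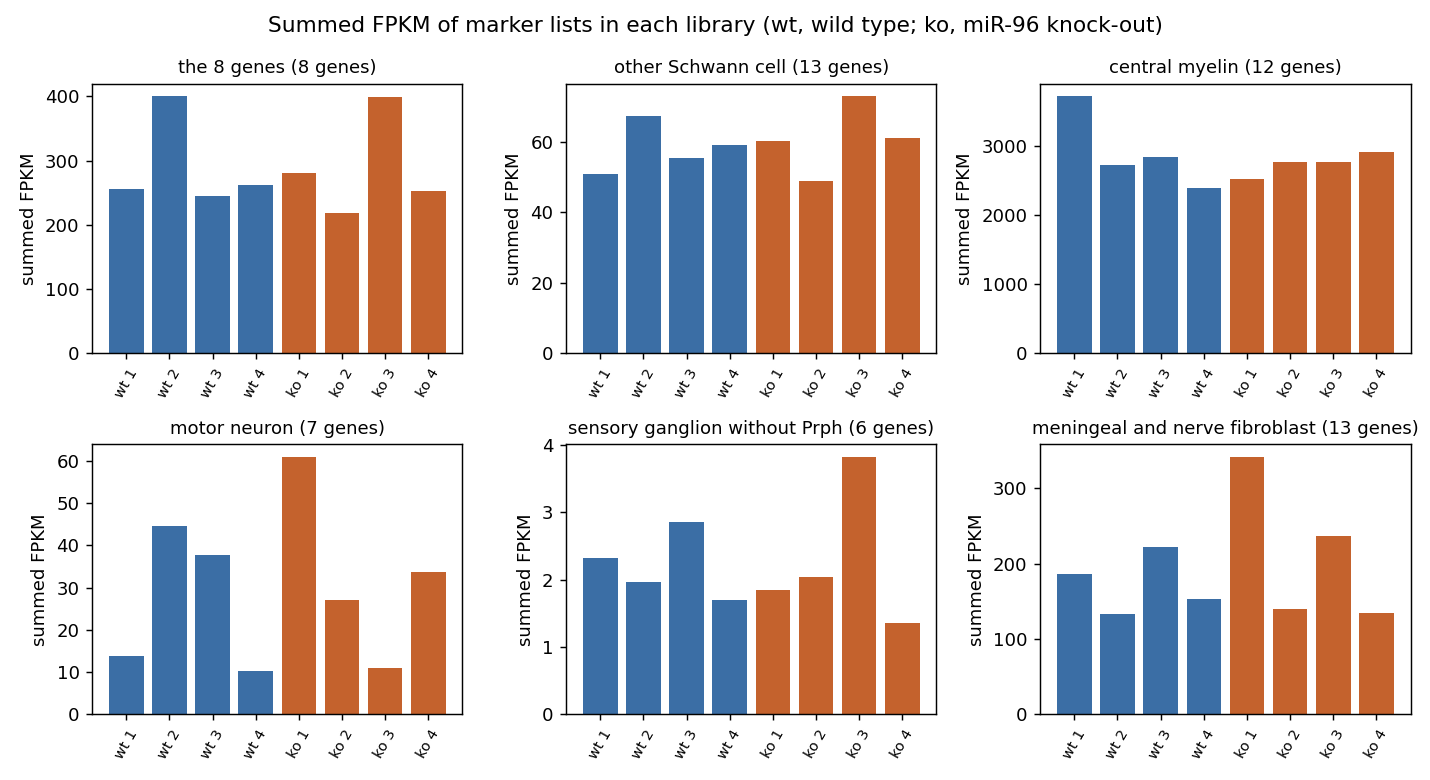
Summed FPKM of 6 marker lists in each library (bars from 0; wt, wild type, blue; ko, miR-96 knock-out, orange). The 8 genes and the other Schwann cell genes peak at wild type 2 and knock-out 3 (400 and 399 FPKM, and 67.3 and 72.8 FPKM), whereas motor neuron genes are high at wild type 2 (44.6) and low at knock-out 3 (10.8). Sensory ganglion genes are drawn without Prph, and with it their sum at knock-out 3 is 12.7.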

How the data were processed

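Polyadenylated RNA of lumbar dorsal horn was used for NEBNext Ultra libraries, per the labels' protocols. HISAT2, SAMtools and Cufflinks are named in the submitters' processing notes; their versions, options and use of strand are not stated there. Values are FPKM as deposited by the authors, per the file headers. The notes name build mm8, but 45128 deposited loci (91.5% of the 49326 genes with a symbol) equal GENCODE M21 on GRCm38, including those of the 8 genes, so GRCm38 coordinates are given.

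Depth was estimated from the steps of low FPKM in single-transcript genes of at least 3000 bases: 98.3% to 99.4% of values lay within 0.15 of a whole fragment, against 30% by chance. A count model was not applied to FPKM. Genotypes were compared with limma 3.58.1 in R 4.3.3 (trend and robust, two-sided) on log2(FPKM + 1), which understates changes of low genes, over 15061 genes with a mean of at least 1 FPKM, with Benjamini-Hochberg adjustment over all of them. The fit was tested on simulated data. The 95% intervals are those of the limma fit. Single genes were also tested by exact permutation.

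The 8 genes and the marker lists were chosen with earlier results of these data known. Named genes are the 8, the Schwann cell list, up to 3 most abundant members of other lists and the 10 genes most like the 8; other genes named were chosen after their values were seen. Alternatives were a pseudocount of 0.1, no filter, a mean of at least 5 FPKM, median-ratio and quantile scaling, no trend, a replicate block, library weights and leaving out libraries. Some genes of the lists are not reported here, and the list counts and sums leave them out.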

Additional observations from a re-analysis of the deposited data

Results flagged for a closer look

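Within each genotype, a library was singled out when its gap to the next passed Dixon's 95% critical value for 4 libraries, which chance gives in about 1 of 20 groups; 44 groups were tested and 3 were singled out. Pmp22 was at 309 FPKM in wild type replicate 2, while the remaining wild-type replicates lay at 180 to 195. The 8 genes together summed to 399.7 FPKM in that library, against 245 to 263, a sum made up mostly of Pmp22. Haemoglobin and Alas2 transcripts summed to 199 FPKM in wild type replicate 1, against 5.96 to 34.4, and no Schwann cell gene described here was highest in that library except Sh3tc2 and Ngfr.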

How the results depend on the processing

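The 7 genes were refitted under 17 alternatives, 117 values in all, since Mlip and Fxyd3 fell below a mean of 5 FPKM. Direction and side of the limma threshold were the same in 104 of them. The fits without trend, without the filter, with a mean of at least 5 FPKM and with the replicate block cannot change a direction, only p. Signs changed in 12, all of Pmp22, Prx, Ncmap or Mlip: quantile normalization gave 0.029 for Pmp22, -0.0051 for Prx and -0.024 for Mlip. Leaving out 1 library gave -0.28 to 0.093 for Pmp22, -0.18 to 0.23 for Prx, -0.026 to 0.26 for Ncmap, 0.040 to 0.26 for Drp2, -0.057 to 0.14 for Mlip, -0.40 to -0.19 for Fxyd3 and 0.39 to 0.78 for Cdh19, with a median of -0.057 to 0.23. The number of the 7 higher in knock-out then ran from 2 (without knock-out replicate 3) to 6, and the number at unadjusted p under 0.05 from 0 to 2 (Cdh19 and Fxyd3, without knock-out replicate 3). Over all genes, 0 to 1 (1 without knock-out replicate 2) passed the adjusted threshold and 328 (without knock-out replicate 1) to 3154 (without wild type replicate 4) the unadjusted one, or 1396 without the filter. Library weights gave 1627 and 5014 genes, 2 of the 7 at unadjusted p, and 0.94 for Cdh19, past the adjusted threshold. The cause was not tested.

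Replicate numbers did not pair the libraries: deviations of same-numbered libraries correlated at -0.108, -0.055, 0.024 and 0.144. With the replicate block, 1 of the 7 (Cdh19) had an unadjusted p under 0.05, and over all genes 790 did and 0 passed the adjusted threshold. In this balanced design the block cannot change a log2 fold change, so only p could move. The other 6 tested genes kept their side of both thresholds. Depth limits Pmp2, seen in at most 5 fragments per library.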

Other observations

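Cdh19 was not alone in its order of libraries among the genes listed. Gjc3, a gap junction gene of myelinating glia, was at 71.2 FPKM in wild type replicate 4 and 67.6, 72.5 and 77.6 in knock-out replicates 1, 2 and 4, against 49.1, 49.2 and 57.2 in wild type replicates 1, 2 and 3 and 64.7 in knock-out replicate 3. Ermn, an oligodendrocyte gene, was at 55.2 to 62.3 FPKM in the first 4 and 36.1 to 54.8 in the others. The order was not confined to glial genes. Slc17a6, the vesicular glutamate transporter listed for dorsal horn neurons, was at 114 to 136 FPKM in wild type replicate 4 and knock-out replicates 1, 2 and 4. In the other libraries it was at 96.7 to 113 FPKM. Gjc3, Ermn and Slc17a6 were picked after their values were seen, so this is a description without a test.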
